A study of Bos taurus with 68 samples.

Results

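Liver RNA taken 14 days before calving was compared with liver RNA taken 30 days before calving in 3 cows, numbered 6983, 7186 and 7188. The 12 arrays of this comparison, of 68 in the series, were chosen by their labels: 6 arrays of day -14 and 6 of day -30, all in the larger of the 2 deposited tables. Each array set liver RNA of a cow against a reference standard RNA on a 2-colour cDNA array, and the dyes were exchanged between the 2 arrays of a cow-day. The 6 cow-days give 3 within-cow differences, day -14 minus day -30, over 16 days of late pregnancy. The groups differ, per the labels, only in the day. The sources used here do not give breed, diet, parity or what the reference standard was made from. Values are log2 ratios, centred on each array's median and averaged over a clone's 2 spots and over the exchanged pair.

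The direction of these ratios is only likely. A positive value means more RNA in liver than in the reference only if Cy5 is the numerator of the deposited values. Otherwise every sign below turns, also of differences between days. The basis is tissue genes on these arrays. Of 6 hepatocyte-enriched genes measured, 5 lay above the reference on both days, among them transferrin (TF), RBP4, SLC10A1 and ASGR2. Of 28 stellate cell and matrix genes, 22 lay below it on both days, among them the collagens COL1A2 and COL3A1. The hepatocyte gene near the reference on both days was APOA1, at -0.18 and 0.00025.

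In the last weeks of pregnancy the cow stops milking, the fetus takes most of its glucose and amino acids, and the liver prepares for the fat that adipose tissue releases around calving. Fatty acids reach the liver, are activated by acyl-CoA synthetases such as ACSL1 and enter mitochondria through the carnitine shuttle, whose first enzyme is CPT1A. Ruminants absorb little glucose, so the liver makes it, from propionate and lactate, with pyruvate carboxylase (PC) as an entry enzyme, while PDK4 holds back the oxidation of pyruvate.

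The 3 cows did not give equally repeatable differences. Between the arrays with liver in Cy3 and those with liver in Cy5, the difference correlated across 5390 probes at 0.20 in cow 6983, 0.26 in cow 7186 and -0.048 in cow 7188, so in cow 7188 the orientations did not rank the probes alike. Differences of cow 7186 were the widest, with an SD across probes of 0.82 against 0.49 and 0.51. Ratios far from the reference lay nearer 0 on day -14 than on day -30 in cow 7186, where the slope of the difference on a probe's mean ratio over the other 5 days was -0.41. In cow 7188 that slope was 0.25, the opposite way, and in cow 6983 it was -0.058. Genes with high liver ratios tended to lie on opposite sides in cows 7186 and 7188, and values are given by cow. The 12 arrays had between 15674 and 16107 of 16416 rows measured, and the spread of an array, its median absolute deviation, ran from 0.215 to 0.984. The widest of the 60 arrays of the table was that of cow 7186 on day -14 with liver in Cy3, and the exchanged pair of that cow-day correlated at -0.020 across rows, where exchanged dyes should oppose. The pairs of cow 7188 were at -0.066 and -0.12, and the other 3 between -0.48 and -0.38. The part of these array differences in any result was not tested.

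**Figure D1:**
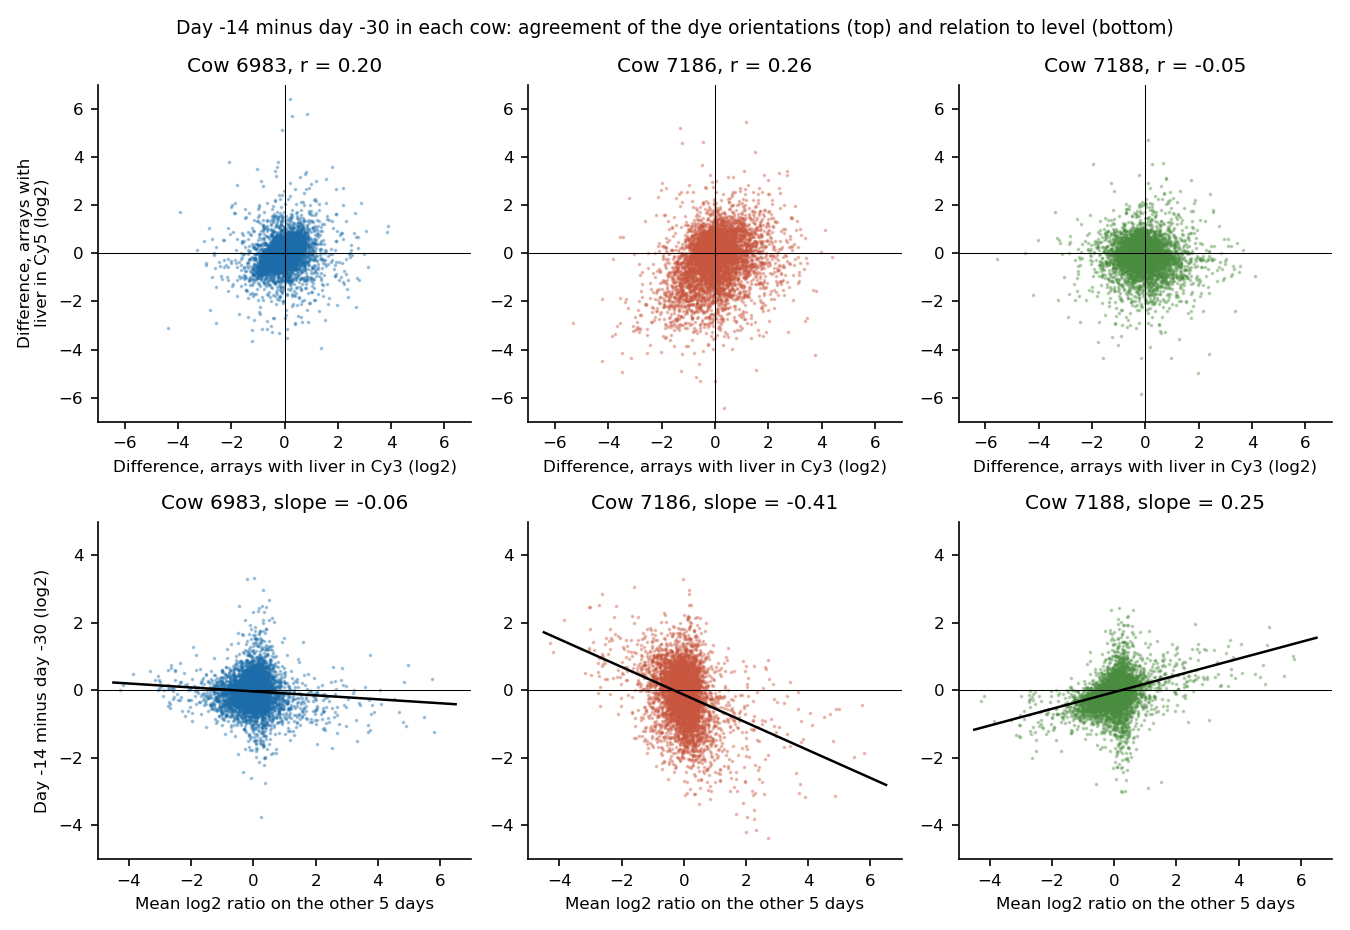
Each point is 1 of 5390 probes. The top row plots the difference, day -14 minus day -30 in log2 ratio, on arrays with liver in Cy3 (x) against arrays with liver in Cy5 (y) for each cow, with r of 0.20, 0.26 and -0.05. The bottom row plots the averaged difference against the probe's mean log2 ratio on the other 5 days, with a least-squares line: the line falls in cow 7186 and climbs in cow 7188.

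No probe passed the test between the days. Of 5390 probes, 0 (0%) reached an adjusted p under 0.05 in limma's paired moderated test with Benjamini-Hochberg adjustment, and the smallest adjusted p was 0.754. At an unadjusted p under 0.05 there were 311 probes (5.77%), where 269.5 would be expected from tests of probes that did not differ. The median SE of a difference was 0.235, and the median half-width of its 95% interval was 0.60 log2 units. With 3 pairs an exact sign-flip test cannot go below 0.25. The genes below are therefore given by their values, and none is a called change. RNA came from whole liver, so fewer cells of a type and less RNA per cell cannot be told apart.

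Lower values on day -14 outnumbered higher ones among the larger differences. A mean difference of at least 2-fold was seen in 89 probes that were lower on day -14 and in 14 that were higher. The imbalance was widest in cow 7186, where 725 probes were at least 2-fold lower and 330 higher. The counts were 141 and 120 in cow 6983 and 199 and 120 in cow 7188. In the same direction in 3 of 3 cows, 807 probes (15%) were higher and 929 (17.2%) were lower, and 309 (5.73%) went the same way in all 6 array pairs of the same cow and dye. Of the probes at least 2-fold different in each of the 3 cows, 2 were lower and 0 higher.

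The leading lower probes are given first, by their p-values. KANK3, an ankyrin repeat protein that regulates actin, lay at 1.15, 0.44 and 1.03 in cows 6983, 7186 and 7188 on day -30 and at -0.63, -0.84 and -0.84 on day -14. All 3 cows were above the reference on day -30 and below it on day -14, and the groups did not overlap. The mean difference was -1.64 (SE 0.22, limma adjusted p 0.754). REPS1, a protein of receptor endocytosis, went from 0.78, 0.85 and 0.78 to -0.34, -0.71 and -0.50, a difference of -1.32 (SE 0.21). The next lower probes by p were CASD1, which acetylates sialic acid (-1.07), ENTPD1, the ectonucleotidase CD39 (-1.18), the Golgi stacking protein GORASP1 (-1.34), the exchange factor FARP1 (-1.13), C15H11orf58 (-1.05), the nucleolar protein RRP1B (-1.13), the pseudogene LOC783577 (-0.92) and galectin-1, LGALS1 (-1.12). Probes that were measured on all 12 arrays, named 1 gene, kept 1 direction in the 3 cows and in the mean of each dye orientation and had an unadjusted p under 0.05 numbered 241 (4.47%) lower and 47 (0.872%) higher.

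Among the higher ones, TMEM141, a membrane protein, lay at 0.021, -1.36 and -0.86 on day -30 and at 0.92, 0.42 and 0.58 on day -14. Its difference of 1.37 (SE 0.25) was the largest of the 10 leading higher probes. LAMA5, the laminin alpha 5 chain of basement membranes, went from 0.47, 0.24 and -0.52 to 1.42, 1.24 and 0.91, a difference of 1.13 (SE 0.21). The other 8 were PIGY, a subunit of the enzyme that starts the glycolipid anchor (1.08), the ATP synthase assembly factor ATPAF2 (0.87), ARAP1 (0.79), the necroptosis kinase RIPK3 (0.91), MYADM (0.86), the DNA polymerase POLM (0.79), the histone methyltransferase EHMT1 (0.92) and NXNL2 (0.77). Other clones of the same genes did not follow. LAMA5 had 3 more, at 0.15, 0.018 and -0.76, and ARAP1 had 2 more, at -0.37 and 0.068. The first 2 of LAMA5 and both of ARAP1 turned sign under at least 1 alternative setting. Among the lower genes, the second clone of REPS1 was at -0.18 and that of RRP1B at -0.19. In cows 6934 and 7079, whose day -14 arrays are in the smaller table, the leading LAMA5 probe differed by -1.31 and -0.52. The leading probes of ARAP1, RIPK3, MYADM, POLM and NXNL2 were also lower on day -14 in both of these cows. PIGY was higher in both (1.03 and 0.029).

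The spots of these clones agreed poorly. A clone's 2 spots differed by over 1 log2 unit on at least 1 of the 12 arrays in 18 of the 20 leading probes, by 1.47 to 4.46 at the most. Of all probes tested, 53.3% kept within 1 unit on every array where both spots had a value. C15H11orf58 and LOC783577 were the 2 leading probes that did. An array with a spot missing could not show a gap and was counted as agreeing. Several lower ones also rested on the Cy5 arrays. CASD1 differed by -0.04 on the arrays with liver in Cy3 and by -2.09 on those with liver in Cy5, and FARP1 by -0.14 and -2.13. The other FARP1 clones lay at 0.17 and 0.37. The probes whose spots agreed are therefore described on their own, a choice made after the values had been seen.

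In the 2873 clones with agreeing spots the larger and more even differences were again mostly lower values on day -14, though by direction alone 556 were higher and 485 lower in 3 of 3 cows. Fitted alone, which also gives the SEs of the clones below, 0 were called (smallest limma adjusted p 0.668, 201 at an unadjusted p under 0.05), and by the same rule as above 176 (6.13%) were lower and 13 (0.452%) higher on day -14. At least 2-fold on average were 28 lower and 0 higher clones. The 176 lower clones, of 168 genes, had a median difference of -0.65, with medians of -0.57, -1.01 and -0.39 in cows 6983, 7186 and 7188. Of them, 110 went the same way in all 6 array pairs, where 187 of all 2873 (6.51%) did. The rule already fixes the direction in each cow, so this count is a description. Read from the fit over all 5390 probes, clones with agreeing spots and p under 0.05 were 109 lower and 2 higher. Over the 19 alternative settings the share that was lower ran from 60.2%, on arrays with liver in Cy5 alone, to 100%, and the counts moved more than the share. There were 23 lower and 1 higher without cow 6983, 68 and 5 without cow 7186, 158 and 8 without cow 7188, and 28 and 4 with all days of the 3 cows in the fit.

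The ribosomal protein RPS3A, of the small subunit, had the largest difference of the 10 leading lower clones with agreeing spots. It lay at -0.086, -0.058 and -0.024 in cows 6983, 7186 and 7188 on day -30 and at -1.29, -1.76 and -0.67 on day -14, a difference of -1.18 (SE 0.24). The 3 cows were nearly level on day -30 and apart by about 1 unit on day -14, and each day -14 value was below every day -30 value. Ribosomal proteins have many near-identical gene copies, which a cDNA clone cannot separate. FGFR2, a fibroblast growth factor receptor, went from 0.84, 1.67 and 1.03 to 0.16, 0.15 and 0.17, a difference of -1.02 (SE 0.22). Here the cows were apart on day -30 and within 0.014 (SD) of each other on day -14.

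BTG1, an antiproliferative cofactor of RNA decay, lay at -0.41, -0.54 and -0.40 on day -30 and at -1.31, -1.34 and -1.13 on day -14. The ER membrane protein TMEM259 went from -0.46, -0.58 and -0.42 to -1.19, -1.31 and -1.14, and its 3 cows gave nearly the same difference, -0.73 (SD 0.0084). The dye orientations behind these averages were less even. With liver in Cy3 the differences were -0.87, -0.56 and -1.36 in the 3 cows, and with liver in Cy5 -0.59, -0.91 and -0.080. In cows 6934 and 7079, whose day -14 arrays are in the smaller table, TMEM259 differed by 0.024 and 1.06. GABARAPL1, which coats autophagosomes, lay at 0.97, 2.12 and 1.75 and then at -0.0092, 1.17 and 1.13. Its groups overlapped because cow 6983 was low on both days, and each cow was lower on day -14. The remaining leading clones were ARID1A, a subunit of the SWI/SNF chromatin remodeller (-0.76), the transcription factor ETS1 (-0.91), the mitochondrial release factor MTRF1L (-0.91), C15H11orf58 (-1.05) and LOC783577 (-0.92), and all 10 went the same way in all 6 array pairs. Further clones of the 176 included the chaperones HSPD1 (-0.76) and HSP90AA1 (-0.94), the initiation factors EIF4A2 (-1.30) and EIF3M (-0.88), lactate dehydrogenase LDHA (-0.65), the glutathione enzyme GSR (-0.80) and the matrix proteoglycan DCN (-0.73).

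P4HB led the 13 higher clones. This protein disulphide isomerase of the ER lay at 0.34, 1.10 and 0.85 on day -30 and at 1.39, 1.92 and 1.17 on day -14, a difference of 0.73 (SE 0.20). All 3 day -14 values were above all 3 day -30 values. PRKCSH, the beta subunit of ER glucosidase II, went from -0.17, 0.32 and 0.10 to 0.25, 1.31 and 0.39 (0.57). The deubiquitinase USP5 went from -0.0020, -0.52 and -0.30 to 0.58, -0.022 and 0.18 (0.52). The complex I subunit NDUFV1 (0.48, but -0.47 with both tables joined), the U1 splicing protein SNRNP70 (0.54), BAIAP2 (0.45), the calcium channel ORAI1 (0.45), TMEM201 (0.44), C18H19orf12 (0.43) and FAM241B (0.40) made up the leading 10.

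**Figure D2:**
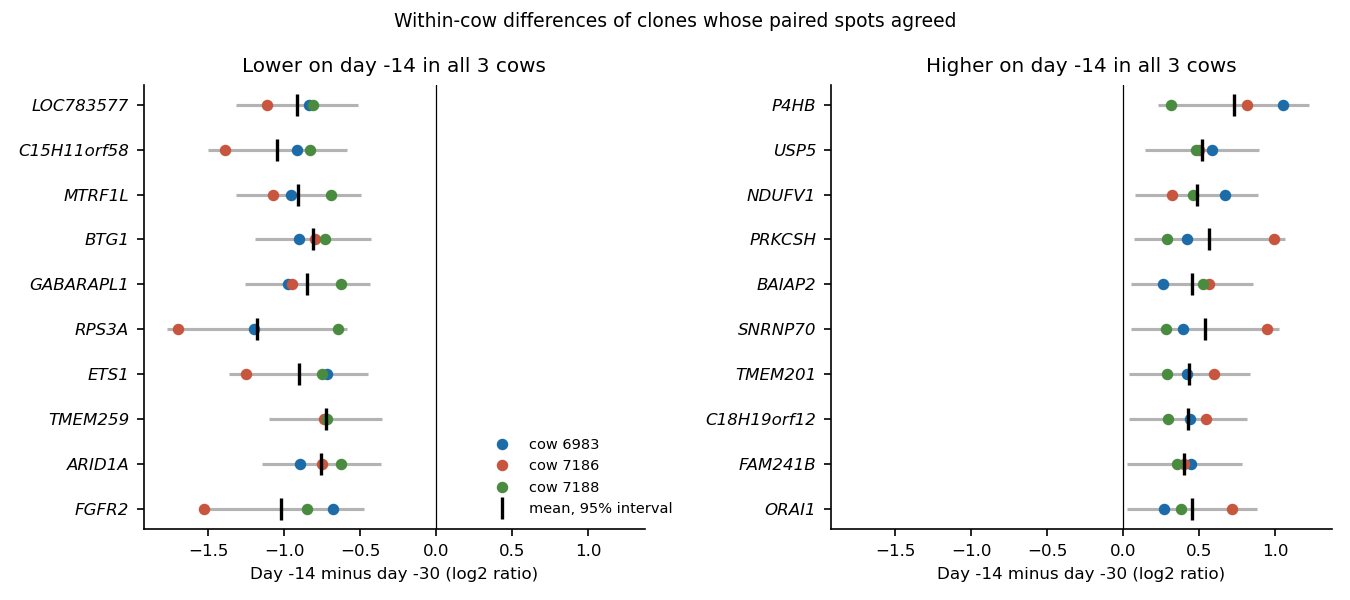
Difference in log2 ratio, day -14 minus day -30, for the 10 lower and 10 higher clones with the smallest p among those whose spots agreed. Points are the cows, the black tick is their mean and the grey bar its 95% interval from limma, not adjusted for the number of clones. The lower clones reach further from 0, down to -1.70 in cow 7186 for RPS3A.

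Other clones of the same genes mostly lay on the same side. Of the 176 lower clones, 74 had another tested clone of the same gene, and of those 89 other clones 68 (76.4%) were below 0, where 51.2% of all probes were. The rule had itself chosen 16 of the 89 as lower, and of the remaining 73 there were 52 (71.2%) below 0. The other LOC783577 clone was at -0.63, the other RPL6 clone at -0.40, and the other 2 of SSR1, a subunit of the translocon-associated complex, at -0.63 and -0.50. Of the 10 leading genes, however, BTG1 had 2 other clones at -0.42 and 0.080, TMEM259 2 at 0.38 and -0.0078, MTRF1L 1 at 0.074 and C15H11orf58 1 at -0.20. These clones share arrays, so this compares probes and not animals.

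Across the 7 days of the same 3 cows, the 176 lower clones stood highest on day -30. The median over clones of the mean ratio was -0.58 on day -65, 0.08 on day -30, -0.54 on day -14, -0.44 on day 1, -0.25 on day 28 and, with 2 cows each, -0.015 on day 14 and -0.18 on day 49. Over all 2873 clones the same medians stayed between -0.21 and 0.075. The choice of clones fixes the gap between days -30 and -14 and favours high values on day -30, so only the other days' values are independent of it. In single cows the set's median difference from day -30 on day -65 was -0.20 in cow 6983, -1.70 in cow 7186 and -0.17 in cow 7188, on day 1 it was -0.33, -0.030 and -1.52, and on day 28 it was 0.26, -0.22 and -0.97, so the cows did not share a course. These differences share the day -30 arrays with the comparison.

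**Figure D3:**
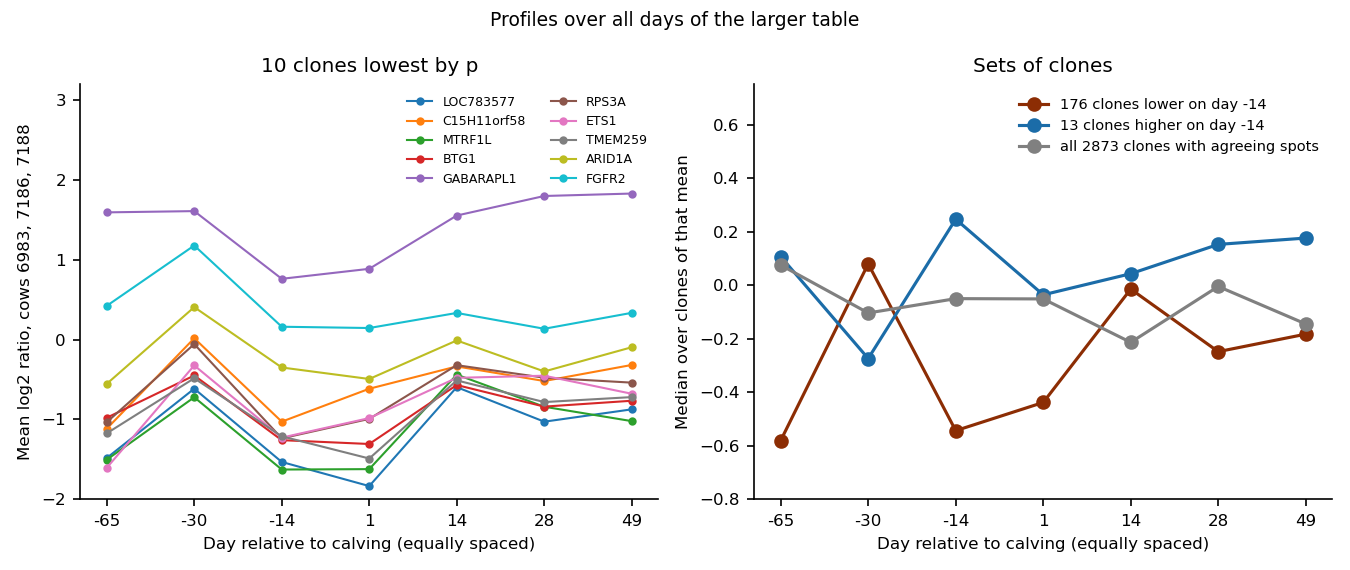
Left, mean log2 ratio of cows 6983, 7186 and 7188 on each day (2 cows on days 14 and 49) for the 10 leading lower clones with agreeing spots. Right, the median of such means over the 176 lower clones, the 13 higher clones and all 2873 clones. Day -30 stands above days -65, -14 and 1 in the lower set, at 0.08 against -0.58, -0.54 and -0.44; days are drawn at equal spacing.

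The other 2 cows give values from arrays that played no part in the choice. Cows 6934 and 7079 have their day -14 arrays in the smaller table, and whether both tables were normalized alike is unknown, so no test was run across them. Of 173 lower clones with a value there, 121 (69.9%) were lower on day -14 than on day -30 in cow 6934 and 139 (80.3%) in cow 7079, and 107 (61.8%) in both. Of all clones with agreeing spots the shares were 46.7%, 51.4% and 37.1%. Of the 13 higher clones, 9 and 8 were lower in these cows, so the higher set did not keep its direction. Within the larger table, 153 of 176 lower clones (86.9%) were below their day -30 value on day -65 in cow 6934, and 72 of 175 (41.1%) in cow 7079, against 55.1% and 45.5% of all such clones. On day 1 these shares were 86.9% and 41.7%, against 52.2% and 68.9% of all such clones. In cow 7079 the set thus did not stand higher on day -30 than on those days. On day 28 the shares were 43.8% in cow 6934 and 28.6% in cow 7079, against 45.0% and 47.8%. In neither cow did the set stand higher on day -30 than on day 28.

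The carnitine shuttle and its neighbours gave mixed values. The first clone of CPT1A lay at 1.16, 2.90 and 1.63 in cows 6983, 7186 and 7188 on day -30 and at 0.40, 0.80 and 1.16 on day -14. It was lower in each cow, most in cow 7186, and the highest day -14 value was just below the lowest of day -30. The difference was -1.11 (SE 0.36, unadjusted p 0.027, limma adjusted p 0.754), and without cow 7186 it was -0.62. The second CPT1A clone went from 1.80, 2.67 and 1.30 to 1.27, 1.67 and 1.57, lower in 2 cows and higher in cow 7188, for a difference of -0.42 (SE 0.30). Over the other days, the first clone averaged 2.07 on day -65, 0.87 on day 1 and 1.73 on day 28 in these cows.

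PDK4, which phosphorylates pyruvate dehydrogenase and so spares pyruvate, lay at 1.18, 2.68 and 0.78 on day -30 and at 0.47, -0.30 and 0.86 on day -14. Its mean difference of -1.20 (SE 0.60) came mostly from cow 7186, at -2.98, and without that cow it was -0.31. ACSL1 went from 2.72, 3.12 and 1.18 to 2.46, 1.19 and 1.99, a difference of -1.94 in cow 7186 and of 0.82 in cow 7188. ACADVL, of very long chain oxidation, differed by -0.070, CPT2 by 0.22 and PC by -0.18 (-0.085, -0.34 and -0.11 by cow). LDHA, which converts lactate and pyruvate, at -2.16, -1.72 and -2.23 and then at -2.77, -2.42 and -2.88, gave like differences in the 3 cows, -0.60, -0.71 and -0.65, and its groups did not overlap, but with arrays scaled to 1 spread its mean difference turned to 0.20. Of the 31 genes chosen for reporting whatever their values, 11 were among the listed clones, and PCK1, PCK2 and PPARA were among those not measured here.

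**Figure D4:**
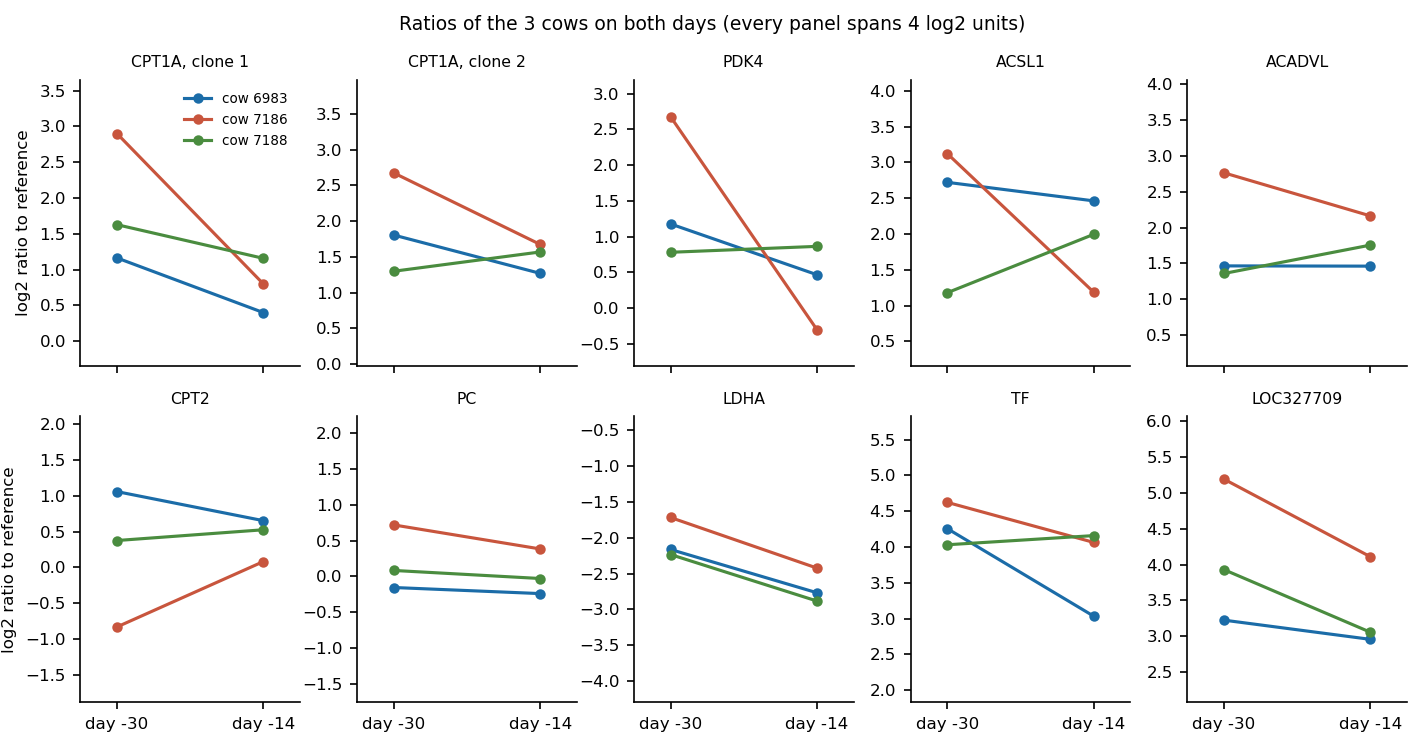
Log2 ratio to the reference on day -30 and day -14 in each cow for genes of fatty acid oxidation (CPT1A with 2 clones, ACSL1, ACADVL, CPT2), pyruvate use (PDK4, PC, LDHA), iron transport (TF) and glutathione conjugation (LOC327709). Every panel spans 4 log2 units. Cow 7186 has the steepest lines in CPT1A, PDK4 and ACSL1, and the LDHA lines of the 3 cows have like slopes.

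Gene lists were read with 1 clone a gene, 4270 genes in all, of which 49.5% were above 0, 15.2% higher and 16.7% lower in 3 of 3 cows, and 5.32% at an unadjusted p under 0.05. The median over all genes was -0.0057. No list held a called gene. The median of 25 of the 27 lists turned sign under at least 1 of 19 alternative settings. So did 116 of the 221 tested clones of the genes named by the rules, second clones included. The directions below therefore belong to the stated setting.

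In fatty acid activation and oxidation, 14 of 20 genes were lower on day -14, 2 of them in 3 of 3 cows, with 0 higher in all 3. The list's median was -0.17 (-0.27, -0.71 and 0.18 by cow), and 0.039 after quantile normalization, 0.043 with the slope on level removed and -0.013 without cow 7186. The electron carriers ETFA (-0.92) and ETFDH (-0.60) were below 0 with CPT1A and PDK4, and ETFB was at 0.21. In gluconeogenesis and pyruvate fate 11 of 14 were lower, 5 of them in 3 of 3 cows (median -0.14), and this sign held under all 19 settings. By cow the medians were -0.23, -0.42 and 0.00575. LDHA, PDHB (-0.44) and PDK3 (-0.34) were lower in each cow and G6PC3, a glucose-6-phosphatase, was higher in each (0.47, but -0.12 with both tables joined). PDK3 was at 0.13 on Cy3 arrays alone. Glycolysis and glycogen genes had 10 of 17 higher (median 0.098), with SLC2A1 at 0.38 and PKM at 0.27, both below 0 with both tables joined. Their median turned to -0.12 on Cy3 arrays alone, -0.10 in the fit of all cows and days, -0.065 with array weights and -0.028 with both tables joined. PYGL, the liver glycogen phosphorylase, was at -0.48 and a second clone at -0.53.

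Triglyceride and fatty acid synthesis genes had 12 of 17 higher (median 0.13, -0.14 on Cy3 arrays alone). AGPAT2, which makes phosphatidic acid, was at 0.69 (-0.20 on Cy5 arrays alone) and AGPAT1 at 0.24 (-0.067 on Cy3 arrays alone), while SREBF1, a lipogenic transcription factor, was at -0.49 (0.16, -2.30 and 0.66 by cow) and at 0.41 without cow 7186. Cholesterol synthesis and uptake had 6 of 10 higher (median 0.052, -0.090 without cow 7188), with FDPS (0.47, higher in each cow) and LSS (0.47) leading. Of 4 bile and lipid export genes, ABCC2, the canalicular conjugate pump, differed by -1.39 (-1.71, -2.72 and 0.27), and the list's median of -0.28 was 0.17 without cow 7186, 0.18 over agreeing spots, 0.028 without large spot ratios and 0.021 on Cy3 arrays.

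Secreted proteins sat far above the reference and differed by cow. Of 6 plasma and acute phase genes 5 were lower (median -0.34), and the median was 0.19 without cow 7186. Ceruloplasmin, CP, lay at 5.50, 7.03 and 4.67 on day -30 and at 5.74, 3.90 and 4.88 on day -14, a difference of -3.13 in cow 7186 and of 0.24 and 0.20 in the others. TF went from 4.26, 4.62 and 4.03 to 3.03, 4.07 and 4.16 (-0.55, SE 0.31). SERPINA3-3 was at 0.30, but at -1.84 with arrays scaled to 1 spread and below 0 under 3 other settings. RBP4 was at -0.092 and above 0 under 6 settings, and TF was at 0.35 with both tables joined. The 12 complement genes had medians of 0.014, -0.86 and 0.82 in the 3 cows, opposite in cows 7186 and 7188, and 0 of them went the same way in all 3. Their overall median of -0.059 was 0.42 without cow 7186, and lay between 0.082 and 0.16 under the 5 other settings that turned it.

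Insulin-like growth factor and insulin signalling had 11 of 16 genes lower (median -0.058, 0.032 with array weights and 0.013 with the slope on level removed). The 3 clones of IGFBP3, the main carrier of IGF-1 in blood, disagreed at -0.32, 0.55 and -0.77. IGFBP4 also had clones on both sides, at -0.30, 0.42 and 0.36, each the same way in 3 of 3 cows. The higher 2 were at -0.41 and -0.44 with arrays scaled to 1 spread. In urea cycle and amino acid metabolism 11 of 16 were lower (median -0.11, 0.080 after quantile normalization). IVD, of leucine breakdown, went from 1.43, 2.56 and 1.66 to 0.91, 1.19 and 1.22 (-0.78, SE 0.26), and its second clone was at -0.14. Xenobiotic, glutathione and antioxidant genes had 16 of 27 lower (median -0.11), with this sign under all 19 settings. By cow, however, the medians were -0.17, -0.38 and 0.042. Only 2 of these genes (7.41%) went 1 way in all 3 cows, where 31.9% of all genes did. LOC327709, listed in RefSeq with the synonym GSTM1, a glutathione transferase, went from 3.22, 5.19 and 3.93 to 2.95, 4.11 and 3.05, lower in each cow (-0.74, SE 0.24). GSR, which regenerates glutathione, was lower in each cow (-1.02, -1.21 and -0.18), and the peroxidases PRDX3 and PRDX6 were at -0.64 and -0.43, with a second PRDX6 clone at -0.64.

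Protein synthesis and folding were covered by 4 lists. Of 30 heat shock and chaperone genes 11 were lower and 3 higher in 3 of 3 cows, or 46.7% in 1 direction, where 31.9% of all genes were. HSP90AA1 lay at -1.09, -0.38 and -0.93 and then at -2.19, -1.78 and -1.26, and HSPD1, the mitochondrial chaperonin, at 0.20, 0.72 and 0.97 and then at -0.46, -0.32 and 0.39. CCT4, of the cytosolic chaperonin, was lower in each cow (-0.62). The list's median was -0.11, and 0.017 on Cy5 arrays alone. Of 45 translation factors and tRNA synthetases 12 were lower and 2 higher in all 3 cows (median -0.058, 0.016 after quantile normalization), with EIF4A2, EIF3M and EIF5 (-1.08) among the lower. Of 46 cytosolic ribosomal proteins 12 were lower and 2 higher in all 3, with RPS3A, RPL6 (-0.67), RPL22 (-0.75) and RPS7 (-0.43) among the lower. In 1 direction in all 3 cows were 31.1% and 30.4% of these 2 lists, near the share of all genes. The ribosomal median of -0.073 was 0.075 with arrays scaled to 1 spread, 0.045 after quantile normalization, 0.081 on Cy5 arrays alone, 0.0068 without cow 6983 and 0.0029 without cow 7188. In the ER list 9 of 61 were lower and 7 higher in all 3 cows, or 26.2% in 1 direction (median -0.11, 0.068 without cow 7186 and 0.021 with array weights). Its lower members included the translocation genes SEC62 (-1.03), SSR1 (-0.57) and SEC61A1 (-0.67), and its higher members P4HB and PRKCSH.

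The ubiquitin and proteasome list had a median of 0.024, with 15 of 73 genes lower and 5 higher in all 3 cows, among them PSMA1 (-0.50), UBE2B (-0.55, second clone -0.59) and USP5. That is 27.4% in 1 direction, below the 31.9% of all genes. The list's median was between -0.12 and -0.013 under the 6 settings that turned it. The citrate cycle and oxidative phosphorylation list was balanced, with 11 of 57 higher and 13 lower in all 3 cows and a median of 0.013 that turned sign under 5 settings. OGDH, of the citrate cycle, was at -0.73 and ATP5PB, of ATP synthase, at -0.77, while NDUFV1, NDUFB10 (0.38) and COX5A (0.43) were on the other side. The cell cycle list had 12 of 19 higher (median 0.13, -0.033 without cow 7186, -0.063 in the fit of all cows and days and -0.14 with both tables joined), and CKS1B was lower in each cow (-0.77). Genes with symbols starting SRSF, HNRNP or RBM, which bind RNA and many of which act in splicing, were looked at after their values had been seen. Of 42, 32 were below 0, and 16 were lower and 2 higher in 3 of 3 cows, with a median of -0.19 (-0.12, -0.50 and -0.11). RBM22 was at -0.61, RBMX at -0.84 and SRSF1 at -0.76.

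**Figure D5:**
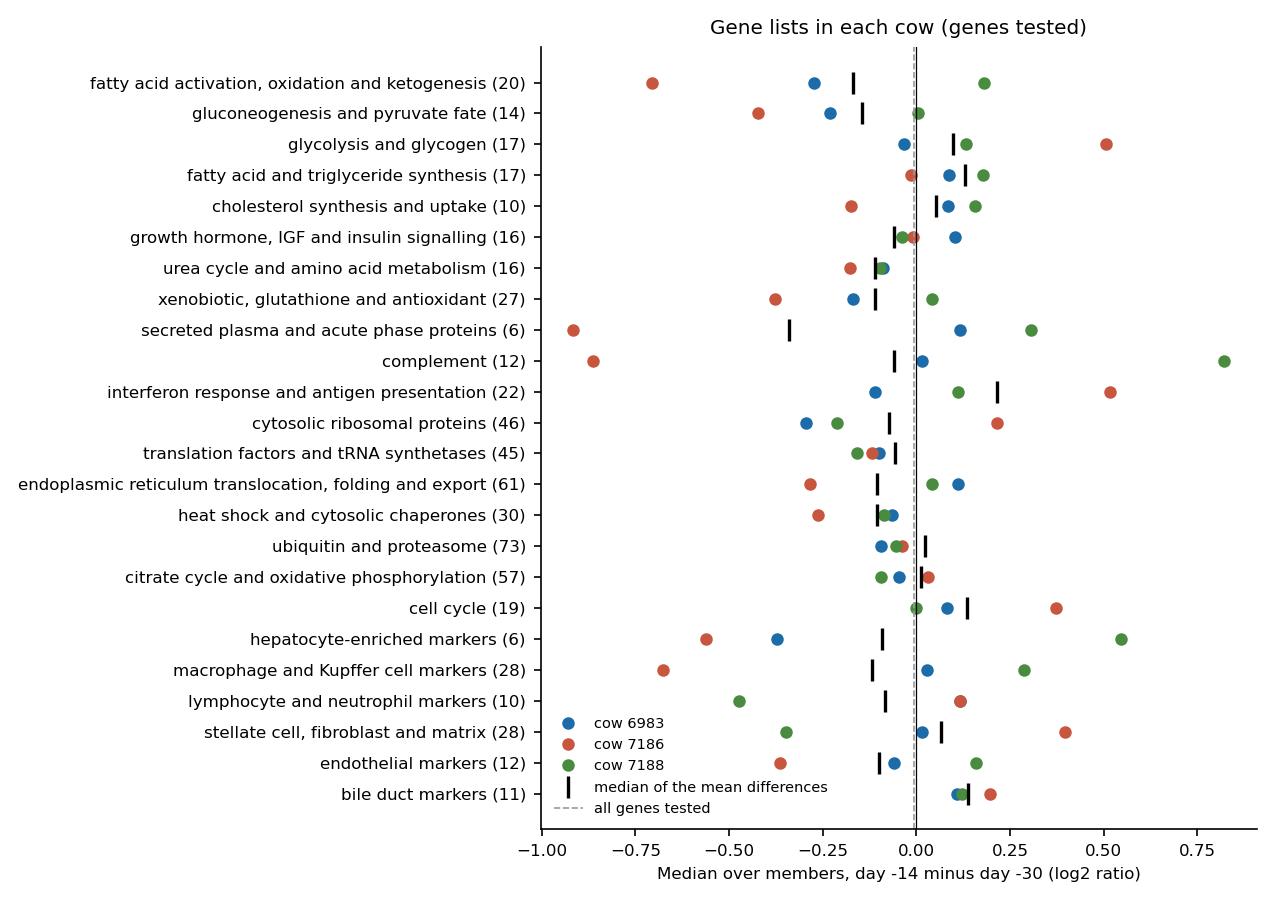
Median difference over the members of each list with at least 5 tested genes (number in brackets), day -14 minus day -30, in each cow (points), with the median of the 3-cow mean differences as a black tick and that of all genes as a dashed line. Cows 7186 and 7188 lie on opposite sides for complement, plasma proteins and hepatocyte, macrophage and stellate cell markers.

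Markers of the other liver cells also split by cow. Macrophage and Kupffer cell genes, of which 24 of 28 lay above the reference on both days, had 18 lower on day -14, with medians of 0.027, -0.68 and 0.29 in cows 6983, 7186 and 7188. The median of -0.12 was 0.061 without cow 7186. Its members CD163 (0.15), VSIG4 (-0.33, second clone 0.17) and CD68 (0.11) were within 2 SE of 0. The IgG receptor FCGR3A was at -0.90 and CD5L, a macrophage scavenger protein, at -1.20 (-1.15, -3.10 and 0.67). Stellate cell and matrix genes had medians of 0.014, 0.40 and -0.35, the reverse pattern over these 2 cows, and their median of 0.067 was -0.19 without cow 7186, -0.094 on Cy3 arrays, -0.079 in the fit of all cows and days and -0.29 with both tables joined. Hepatocyte markers had medians of -0.37, -0.56 and 0.55, and their median of -0.092 turned sign under 7 settings, to between 0.0047 and 0.21.

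Of 11 bile duct markers 9 were higher on day -14, 6 of them in 3 of 3 cows (median 0.14, -0.080 on Cy3 arrays alone and -0.0029 with both tables joined). CLDN4, a tight junction protein, went from -0.19, -1.18 and -0.19 to 0.13, -0.36 and 0.12, and KRT19, a duct keratin, was at 0.20 and SPP1 at 0.22, both within 2 SE of 0. ANXA4, a calcium-binding annexin, was lower in each cow (-0.93). Among endothelial genes, 7 of 12 were lower on day -14, 2 of them in 3 of 3 cows, and 3 were higher in 3 of 3. LYVE1, a hyaluronan receptor of sinusoidal and lymphatic endothelium, went from 0.79, 2.16 and 1.46 to 0.38, -0.14 and 0.71 (-1.15, SE 0.41). CDH5 was at -0.38, while PECAM1 had a clone at 0.088 and another, lower in each cow, at -0.92. ROBO4 was at 0.30 (-0.026 on Cy3 arrays alone) and PLVAP at 0.20 (-0.013 on Cy5 arrays alone). The list's median of -0.099 was 0.14 without cow 7186. Lymphocyte and neutrophil genes had 7 of 10 lower, with CD3E at -0.80, while GNLY was at 0.36 and IGHM at 0.22 (-0.38 with both tables joined). Spots agreed in 2 of the 10. The list's median of -0.085 was 0.29 over agreeing spots, 0.21 without cow 7188 and between 0.0067 and 0.052 under the 4 other settings that turned it. Interferon and antigen presentation genes had 17 of 22 higher (median 0.22, but -0.0090 with array weights and -0.12 with both tables joined), with medians of -0.11, 0.52 and 0.11 by cow. IFI30 was at 0.77 (-0.34, 2.17 and 0.47) and IFI35 at 0.54. Whether the share of these cells in the samples differed between the days was not tested. The erythroid marker measured, HBQ1, was at -0.019, and the 4 adipose and muscle genes had a median of -0.052, which turned to between 0.025 and 0.13 under 4 settings.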

How the data were processed

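The authors deposited log2 ratios of the dye channels for every spot of 2-colour cDNA arrays, per the labels from images taken on a Scanarray 4000 scanner and read with GenePix 4.0. The sources used here do not state background treatment, normalization or the numerator of the deposited ratio. Channel intensities were not analysed here, and precision is limited by the number of arrays. Each array was centred on its median, arrays with liver in Cy3 were turned, and the 2 spots of a clone and the exchanged pair were averaged. Of 5693 clones (5598 naming 1 gene, 95 several, symbols updated for 5591), 5390 had values on all 6 cow-days. The paired fit used limma 3.58.1 in R 4.3.3 with cow as a block, because the same animal was sampled on both days; it has 2 residual and 3.17 prior degrees of freedom. P-values rest on the spread between 3 cows, including array noise, drawn by the moderation toward a spread pooled over all probes of the fit. The fit was tested on simulated data with independent noise, which held none of the dye, spot or level differences of these arrays.

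Gene lists used, for each gene, the clone with most spots measured on the 12 arrays. Named genes were the up to 10 probes each way with the smallest unadjusted p that went 1 way in all cows and both dye orientations on 12 measured arrays, up to 4 and 2 members of each list, and 31 fixed genes. Defining markers, second clones and further clones with agreeing spots were named after their values were seen. The members and lists were chosen with earlier results of these data known. The ribosomal symbol pattern was corrected after values were seen, to drop kinases; the oxidative phosphorylation list holds assembly factors. Clones with agreeing spots (within 1 log2 unit wherever both spots had a value) and the slope on level were added after seeing the data. Alternatives changed the centring, scaling, fit, spots, dye orientation, tables and cows.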

Additional observations from a re-analysis of the deposited data

How the results depend on the processing

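No probe was called under any of the 19 alternative settings. The smallest limma adjusted p lay between 0.328, with both tables joined (5 cows, 5213 probes), and 1.00, without the block for cow. Without the replicate block there were 0 calls, as with it, and leaving out each cow in turn gave 0 in each fit. The share of probes with 1 direction in 3 of 3 cows ran from 26.3%, on Cy3 arrays alone, to 45.9%, on Cy5 arrays alone. The rule had fixed the direction of the 20 leading probes in each cow and dye orientation. Their sign therefore could not turn where a cow was left out or 1 orientation was used. With clones whose spots disagreed left out, 2 of the 20 had a value. Leading probes with a value kept their sign except MYADM with both tables joined (-0.18). Whether the tables joined there were normalized alike is unknown, and the cause was not tested. The setting that leaves out cows whose exchanged arrays did not oppose had nothing to leave out. It drops a cow only where the correlation of an exchanged pair is not negative. Cow 7186, with a pair at -0.020 on day -14, was therefore kept. Limits are 3 cows, 2 residual degrees of freedom and a direction of the ratio that is only likely.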

Other observations

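Clones that fell outside every list also belonged to the 176 lower clones with agreeing spots, and were picked here after their values had been seen. The sterol carrier SCP2 differed by -1.46 (-1.11, -3.05 and -0.22 in cows 6983, 7186 and 7188), the tight junction protein CLDN1 by -1.69 with a second clone at -1.25, the zinc transporter SLC39A8 by -1.13 and the clathrin heavy chain CLTC by -1.03. Second clones of SLC39A8 and CLTC lay on the other side, at 0.64 and 0.096. YWHAB, a 14-3-3 protein, had clones at -0.99 and -1.02 and another, not among the 176, at -0.65, SERBP1, which binds messenger RNA, had clones at -0.99 and -0.61, and TXNIP, an inhibitor of thioredoxin, at -0.86 and -0.79, with a further clone, whose spots did not agree, at -0.89. Cow 7186 had the largest difference in each of these clones except the second SLC39A8 clone and the second CLTC clone. None passed limma's adjusted test.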
